A study of Mus musculus with 96 samples.

Results

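Pairs of sister cells from 1 division were compared in which the sisters held unequal amounts of transcript of H3f3a, a gene of the histone variant H3.3. They were chosen by H3f3a itself from 48 pairs: the count of H3f3a in each cell was divided by the cell's total of spike-in counts, and a pair was kept when the sister with more H3f3a had at least 1.5 times the value of the other. This gave 16 of the 48 pairs, 32 of 96 cells. In each of them the H3f3a-high sister was compared with the H3f3a-low sister, gene by gene. The difference in H3f3a is therefore a description of the choice and not a result.

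The cells were horizontal basal cells (HBCs), the reserve stem cells of the olfactory epithelium (OE), the sensory lining of the nose. They were wild type and came from adult mice of 6 to 8 weeks whose OE was taken 2 days after an injection of methimazole, a drug that strips the olfactory epithelium. The cells then grew ex vivo on coated dishes, and after a division both daughters were picked by mouth pipette and their pairing was kept. All 96 cells share this genotype, injury and culture, and neither strain, sex, mouse nor dish is given for any of them, so that the cells count as 1 sample and no p-values are given. Cultured cells have left the tissue, its nerve and its other cell types. Only RNA with a poly(A) tail was captured, ERCC spike-in (a mix of synthetic RNAs) was added to each lysate, and reads were counted per gene without molecular identifiers, so that PCR copies of 1 molecule count as separate reads.

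Each cell had between 29454150 and 44849003 counts on genes and 11403 to 14632 genes with a count, and the 92 ERCC transcripts took 1.06% to 5.75% of all counts. No library was identical to another. The HBC markers Trp63, Krt5 and Krt14 were counted in all 96 cells. The 16 pairs came from 10 of the 12 sets of 8 cells under which the data were deposited, with at most 3 pairs from 1 set, and both sisters of a pair were always in the same set. What these sets stand for is not given.

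H3.3 replaces the replication-coupled histones H3.1 and H3.2 outside S phase. It is encoded by H3f3a and H3f3b, which differ in sequence and make the same protein, and unlike the transcripts of the replication-coupled histones theirs carry a poly(A) tail. The HIRA complex places H3.3 at transcribed genes and regulatory sites, and DAXX with ATRX places it at telomeres and other repeats. In stem cells that divide asymmetrically, the share of old and new histones that each sister receives is studied as a carrier of cell state. The question put to these pairs is whether the sister with more H3f3a transcript also differs in genes of self-renewal or differentiation.

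The first 90 coding bases of H3f3a, H3f3b and 3 processed pseudogenes of H3f3a are shown, because they set how far reads of these genes can be told apart. The sequences are from the GENCODE M21 transcripts on GRCm38, all on the minus strand, and capitals mark bases that differ from H3f3a at the same position. H3f3a (ENSMUSG00000060743) lies at chr1:180800832-180813943 and H3f3b (ENSMUSG00000016559) at chr11:116021912-116027962, and the stretches shown are at chr1:180811837-180811926 and chr11:116023920-116024009, in the first coding exon. The antisense gene H3f3aos overlaps the start of H3f3a, and since the counting is not stated to use strand, reads there cannot be told apart. Those of the pseudogenes are at chr2:119665947-119666036 for H3f3c, chr13:100946726-100946815 for Gm10257 and chr16:91114510-91114599 for H3f3a-ps2.
H3f3a: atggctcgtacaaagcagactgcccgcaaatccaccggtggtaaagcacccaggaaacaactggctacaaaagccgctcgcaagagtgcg
H3f3b: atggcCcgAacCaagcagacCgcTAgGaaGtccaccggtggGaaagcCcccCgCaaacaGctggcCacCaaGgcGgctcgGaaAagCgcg
H3f3c: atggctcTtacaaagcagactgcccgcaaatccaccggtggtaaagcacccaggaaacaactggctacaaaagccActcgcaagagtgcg
Gm10257: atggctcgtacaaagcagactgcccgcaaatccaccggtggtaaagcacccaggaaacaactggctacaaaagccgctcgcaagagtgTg
H3f3a-ps2: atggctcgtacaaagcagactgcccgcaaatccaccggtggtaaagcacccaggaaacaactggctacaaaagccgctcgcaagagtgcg
H3f3b differed from H3f3a at 20 of these bases and at 95 of the 408 coding bases, which leaves 76.7% identity. Their longest identical run was 23 bases, and no word of 31 bases occurred in both coding sequences. The copies were much closer. H3f3c and Gm10257 each differed from H3f3a at 4 of 408 bases and H3f3a-ps2 at 5, none of them within the first 90 bases of H3f3a-ps2. In all, 55 genes of this annotation, each of them a processed pseudogene, shared at least 1 word of 31 bases with the coding sequence of H3f3a, and 8 of them passed the filter on low counts.

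The H3f3a value in the 16 pairs is given as a normalized count, the count scaled to the mean spike-in total of all cells. The H3f3a-high sisters had 6938 to 41018 with a median of 21298, and the H3f3a-low sisters had 3911 to 18569 with a median of 11321. The 2 groups overlapped, so that the H3f3a-high sister of 1 pair could hold less H3f3a than the H3f3a-low sister of another. Pair 22 had the largest ratio, with 40136 against 12796, a ratio of 3.14. Pair 17 followed with 41018 against 13775, a ratio of 2.98, and pair 23 with 26832 against 9811, a ratio of 2.73. Pair 14 had the lowest values, 6938 against 3911. The median log2 ratio was 0.81 (SD 0.36 over 16 pairs). The pairs just inside the cutoff were pair 45, with a ratio of 1.531, and pair 27, with 1.532. Just outside were pair 11 with 1.475 and pairs 12 and 31 with 1.454 each.

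**Figure D1:**
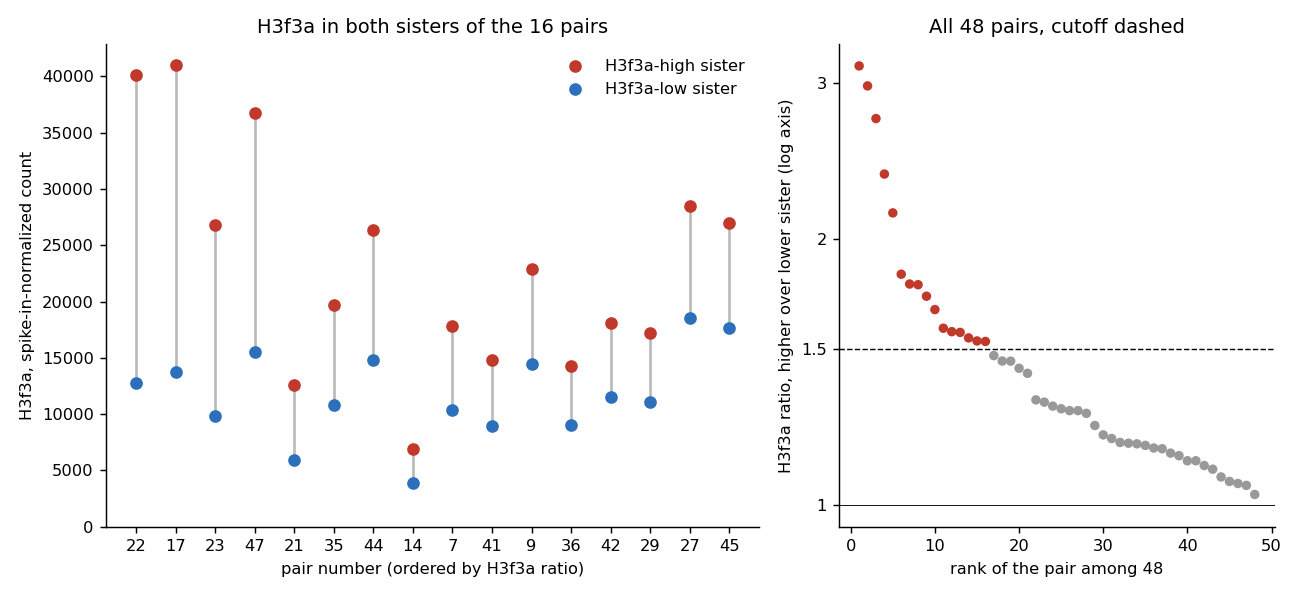
Left, the spike-in-normalized count of H3f3a in the H3f3a-high (red) and H3f3a-low (blue) sister of each of the 16 pairs, ordered by their ratio. Right, the ratio of the sisters in all 48 pairs on a log axis, red where it reached the cutoff of 1.5 (dashed); ratios run from 1.03 to 3.14 across the cutoff.

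The raw counts and the TPM of H3f3a rest on the reads that chose the pairs, and are given as a description. Before any scaling the H3f3a-high sister had the higher raw count in 16 of 16 pairs. The raw counts were 8802 to 29296 (median 16797) against 5966 to 17051 (median 12167). In TPM, which is relative to all transcripts of a cell, H3f3a was higher in the same sister in 16 of 16 pairs, with a median ratio of 1.52 and a range of 1.06 to 2.49. How many pairs reached 1.5 depended on the scaling. As a share of the counts on genes, 12 pairs reached the cutoff and 9 of them were among the 16. In pair 47 the ratio was 2.37 against spike-in and 0.997 as a share. Pairs 17, 21, 22, 23, 35, 36, 41 and 45, 8 pairs, reached 1.5 under the spike-in total, the median of ratios over ERCC transcripts, the total of gene counts and the median of ratios over genes.

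Other quantities moved with the choice of pairs. The spike-in total is the divisor of every value, and it was lower in the H3f3a-high sister in 14 of 16 pairs, with a median ratio of 0.81 (0.486 to 1.19). Counts on genes per spike-in count, a measure of the amount of captured RNA, were higher in the H3f3a-high sister in 12 of 16 pairs: they ran from 16.4 to 93.4 with a median of 33.7 in the H3f3a-high sisters, and from 16.7 to 44.4 with a median of 30.2 in the others. The highest value was that of the H3f3a-high sister of pair 47, 2.37 times that of its sister. The number of genes with a count was higher in 9 pairs and lower in 7. In the 32 pairs below the cutoff the spike-in total was lower in the sister with more H3f3a in 22 pairs, with a median ratio of 0.947.

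The ratios of other genes were shifted too. To be tested, a gene needed a count of 10 in 10% of the 96 cells or more, which left 14463 genes, H3f3a included. For each, the log2 ratio of H3f3a-high over H3f3a-low sister was taken within each pair on normalized counts with a pseudocount of 1. The median over pairs had itself a median of 0.14 over the 14462 genes other than H3f3a, and of 0.32 over the 7655 genes that reached a count of 10 in 80% of cells or more, called widely counted below. In the 32 other pairs the median over widely counted genes was 0.07. The pairs differed in this among themselves. The median over all genes was 1.11 in pair 47, and it was 0 in 8 pairs. As a share of the counts on genes the median over widely counted genes came to 0.03. More RNA in a cell and fewer reads from its spike-in cannot be told apart here, and their part in the differences that follow was not tested.

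**Figure D2:**
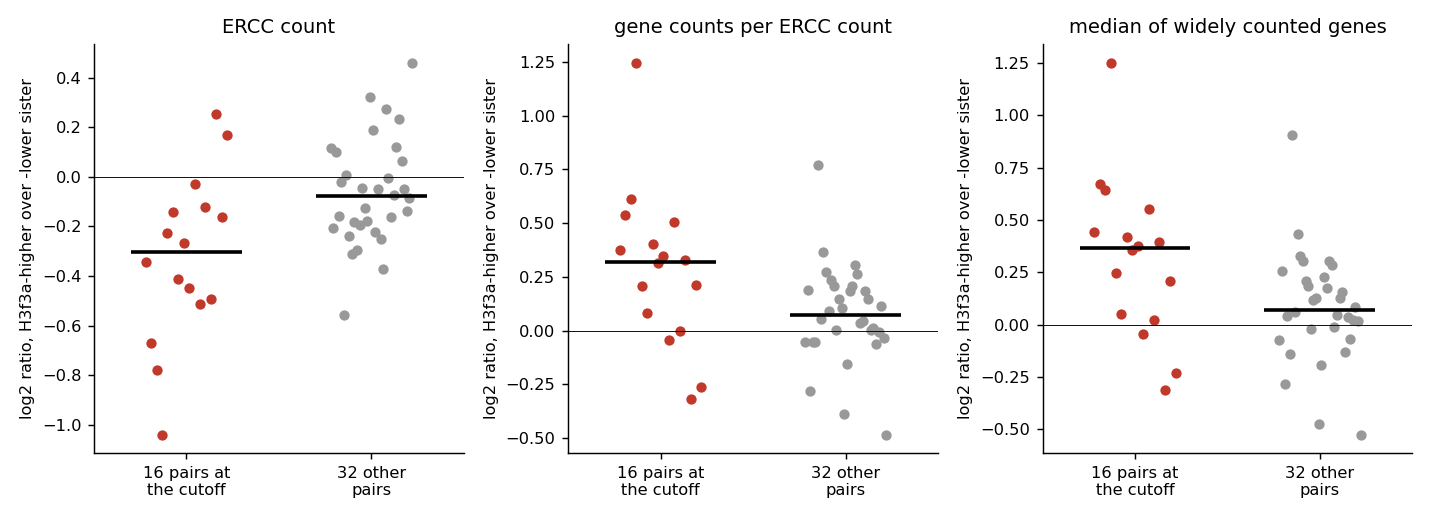
Log2 ratio of the sister with more H3f3a over the sister with less, for the ERCC count (left), the gene counts per ERCC count (middle) and the median of widely counted genes (right). Each point is 1 pair, bars are medians; 14 of the 16 pairs at the cutoff lie below 0 for the ERCC count, and 13 of 16 lie above 0 for the median of widely counted genes.

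A gene was called past the fold when its median log2 ratio was at least 0.58 in size, that is 1.5-fold, and the direction was the same in at least 80% of the pairs, 13 of 16. Of the 14462 genes, 390 were past the fold and higher in the H3f3a-high sister, 2.7%, and 19 were past it and lower, 0.131%. After the median of all genes had been subtracted within each pair, 130 were higher, 0.899%, and 54 lower, 0.373%. As shares of the counts on genes, 85 were higher, 0.588%, and 68 lower, 0.47%. A median above 0 was itself common on the spike-in scale, with 57.7% of all tested genes and 77.3% of widely counted ones. Of the 7655 widely counted genes, 322 were past the fold and higher and 12 lower on the spike-in scale. As shares of the counts on genes, 58 of them were higher and 52 lower. The lists of genes below are to be read against these values, and are counted on the spike-in scale unless stated otherwise.

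H3f3b, the other gene of H3.3, had a median ratio close to that of all widely counted genes. Per length it was the more abundant gene, with a median of 886 TPM over the 96 cells against 234 TPM for H3f3a. Its normalized count was 13556 to 143074 with a median of 48443 in the H3f3a-high sisters, and 13377 to 58862 with a median of 43378 in the H3f3a-low sisters. The groups overlapped, and the highest values were those of the H3f3a-high sisters of pair 47, 143074, and pair 44, 114685. H3f3b was higher in the H3f3a-high sister in 11 of 16 pairs. The median of its log2 ratios was 0.29 (SD 0.75 over pairs), short of the fold and beside 0.32 for widely counted genes. The ratios ran from -1.27 in pair 36, where the H3f3a-high sister had 13556 against 32595, to 1.82 in pair 47. In TPM it was higher in 8 pairs and lower in 8.

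H3f3b had its own uneven pairs. It reached a ratio of 1.5 in 17 of 48 pairs, 8 of which were among the 16 for H3f3a, and in 6 of these 8 the same sister was higher for both genes. Over the 48 pairs, the log2 ratio of the sister numbered 1 to the sister numbered 2 had a Pearson correlation of 0.34 and a Spearman rank correlation of 0.30 between both genes. Without pairs 17 and 22, which lay farthest from the median, the Pearson correlation was 0.30. Both genes share their divisor on this scale, and as shares of the counts on genes the Pearson correlation was 0.0562 and the Spearman rank correlation 0.126. The sum of both genes and the part of H3f3a in it are raised by the choice of pairs, and are given as a description. The sum was higher in the H3f3a-high sister in 13 of 16 pairs with a median ratio of 1.38 in normalized counts, and in 10 of 16 with a median ratio of 1.12 in TPM. H3f3a made up 26.1% of this sum in TPM in the H3f3a-high sisters and 16.7% in the others, as medians.

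**Figure D3:**
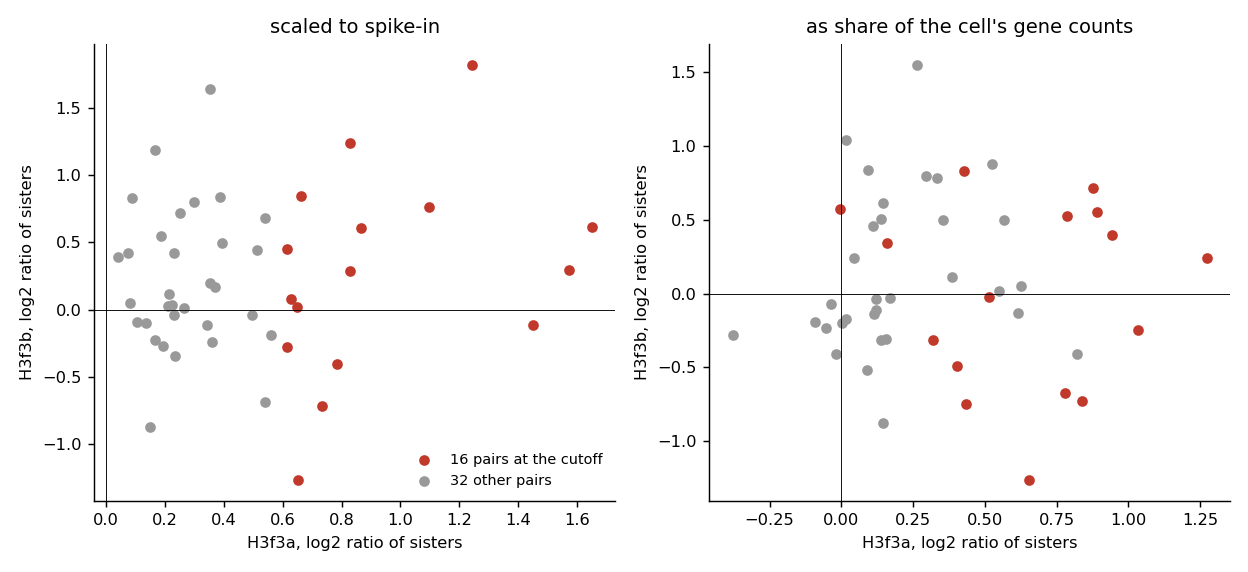
Log2 ratio of H3f3b against that of H3f3a, sister with more H3f3a over sister with less, scaled to spike-in (left) and as share of the cell's gene counts (right). Red points are the 16 pairs at the cutoff and grey points the 32 others; red points lie on both sides of 0 for H3f3b, 11 above and 5 below on the left and 8 and 8 on the right.

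The pseudogene copies of H3f3a went with it. All 8 tested copies had a positive median log2 ratio, with a median of 0.88 over the copies, and 5 of 8 were past the fold and higher, where 2.7% of all genes were. In the 32 other pairs 5 of 8 were positive, with a median of 0.17. H3f3c had 96.2 to 412 normalized counts (median 186) in the H3f3a-high sisters and 34.1 to 213 (median 109) in the others, and was higher in 15 of 16 pairs. Gm6421 had medians of 194 and 105 and Gm10257 of 77.96 and 46.5, each higher in 16 of 16 pairs, as were 0.0415% of all genes. H3f3a-ps2 had medians of 86.7 and 42.1. Their mean counts per cell, 5.10 to 155, were small beside 14387 for H3f3a. Reads from H3f3a cannot be told from reads of a copy along the stretches they share, so these values are uncertain as values of the pseudogenes. They are no second measure of H3f3a, since the choice of pairs used its reads.

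All 8 tested genes of the proteins that place H3.3 in chromatin had a median log2 ratio above 0, as did 77.3% of widely counted genes. The median of the list was 0.64, and the list was higher in the H3f3a-high sister in 12 of 16 pairs, but 0 of 8 were past the fold in either direction. Hira, the chaperone that names its complex, had 0.77 and was higher in 10 pairs, and its partners Ubn1 and Cabin1 had 0.76 and 0.68. Atrx, the remodeller that works with Daxx, was higher in more pairs than any of the others. It had 4006 to 20598 normalized counts (median 8917) in the H3f3a-high sisters and 2495 to 12154 (median 5342) in the others, a log2 ratio of 0.56 (SD 0.70), and was higher in 14 of 16 pairs. In the pairs below the cutoff Atrx was higher in the sister with more H3f3a in 12 of 32, with a median of -0.23. As a share of the counts on genes Atrx was higher in 10 of the 16 pairs. In the 8 pairs that all 4 scalings kept, its median on the spike-in scale was 0.07. Daxx had 0.06. As shares of the counts on genes the list had a median of 0.33, with 7 of 8 members positive. Over those 8 pairs its median was 0.65 on the spike-in scale and 0.44 as shares, beside 0.22 and 0.03 for widely counted genes. In the 32 other pairs the list had a median of 0.07 with 5 of 8 members positive, beside 0.07 for widely counted genes.

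Chaperones that act with DNA replication were closer to all widely counted genes, with a median of 0.31 over 11 genes and 1 past the fold. That gene was Nasp, which holds free H3 and H4, with medians of 6332 against 4060 and a log2 ratio of 0.59 (SD 1.72, higher in 13 of 16 pairs). Npm1, an abundant nucleolar chaperone, had 0.45 and was higher in 14 pairs, and Mcm2, the helicase subunit that passes on old histones, had -0.23. Of 8 other histone variants with a poly(A) tail, 1 was past the fold. Cenpa, the H3 variant of centromeres, had 7.03 to 29597 normalized counts (median 3196) in the H3f3a-high sisters and 13.3 to 9548 (median 2394) in the others, a log2 ratio of 0.92 (SD 2.07), and was higher in 13 of 16 pairs. H2az1, the H2A variant at transcription start sites, was higher in all 16 pairs, one of the 0.0415% of genes that were, with medians of 60536 and 53558 and a log2 ratio of 0.42 (SD 0.36). In the other 32 pairs it was higher in the sister with more H3f3a in 24, by 0.23, and as a share of the counts on genes it was higher in 12 of the 16, by 0.09. Neither Nasp nor Cenpa was past the fold relative to all genes or as a share.

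The genes that define HBCs had no common direction on the spike-in scale. Of 12 tested genes, 0 were past the fold, the median was 0.04, and the list was higher in the H3f3a-high sister in 8 pairs and lower in 8. Trp63, the transcription factor that keeps HBCs quiescent, had 1252 to 27642 normalized counts (median 7078) in the H3f3a-high sisters and 854 to 27816 (median 8663) in the others. Its log2 ratio was -0.25 (SD 1.20), higher in 7 pairs and lower in 9. The keratins Krt5 and Krt14 had 0.04 (SD 0.97, higher in 9 pairs) and -0.04 (SD 1.10, higher in 8). The highest member was Krt15, with 1.89, higher in 11 pairs and lower in 4. As shares of the counts on genes, 11 of the 12 had negative medians, with a median of -0.25 over the list, and the list was lower in 13 of 16 pairs. There too 0 of 12 were past the fold. Widely counted genes were shifted alike, from 0.32 to 0.03, so that the list lay below them on both scales. A negative median as shares was not particular to this list. The wound-response, immediate early and glycolysis lists below had -0.23, -0.26 and -0.15 as shares.

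The study showed its lists of differentiation and self-renewal genes on these same cells, so that a direction in them is not independent evidence. None of the 6 tested differentiation genes and none of the 8 self-renewal genes were past the fold. Their medians on the spike-in scale were 0.73 and 0.08. In the 8 pairs kept by all 4 scalings they were 0.35 and 0.47, which turns their order. As shares of the counts on genes the order was kept, with 0.56 and -0.27, and in those 8 pairs 0.17 and 0.06. Cdc20, an activator of the anaphase-promoting complex, had 23.4 to 89572 normalized counts (median 6179) in the H3f3a-high sisters and 12.2 to 19411 (median 3229) in the others, a log2 ratio of 1.51 with an SD of 3.43, and was higher in 11 pairs. Kdm1a, a demethylase of histone H3, had 0.91 (SD 2.96, 12 pairs), and Mki67, a marker of cycling cells, had 0.55 (SD 2.48, 10 pairs). Sox9, a transcription factor of the gland and duct lineage, had a paired log2 ratio of 1.78 with an SD of 4.98. It was higher in 10 pairs and lower in 4. Its group medians were 223 against 5.89 normalized counts, with 0 in 2 H3f3a-high and 7 H3f3a-low sisters. Among the pairs below the cutoff its log2 ratio was -0.12. There it was higher in the sister with more H3f3a in 13 pairs and lower in 17. The wound-response keratin Krt16 and the Hippo pathway factor Yap1 were each higher in 8 pairs and lower in 8. Ascl3 and Il33 had a count in 5 and 7 of the 96 cells and were not tested. Ascl3 had counts in 2 H3f3a-high and 0 H3f3a-low sisters, and Il33 in 3 of each.

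Among the self-renewal genes, Myc had 0.13 (SD 4.77, higher in 9 pairs), Trp53inp1 0.64 (SD 4.70, 9 pairs), Fzd7 0.78 (SD 5.27, 8 pairs), Icam1 0.45 (SD 6.11, 9 pairs) and Krt23 -0.25 (SD 1.65, 7 pairs). Each of these SDs exceeded the median it belongs to. Of the wound-response list, 0 of 13 genes were past the fold and the median was -0.01. Krt6a, its most abundant keratin, had medians of 136457 and 195197 normalized counts and was lower in the H3f3a-high sister in 11 of 16 pairs, with a log2 ratio of -0.58 (SD 1.12). As a share of the counts on genes it had -0.75, was lower in 13 of 16 pairs and was the 1 gene of the list past the fold. In the other pairs it was higher in the sister with more H3f3a in 19 of 32. Squamous genes had a median of 0 over 18 tested genes, and immediate early genes 0.12 over 15, with 0 past the fold in both.

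Few markers of other cell types passed the filter on low counts. Of 23 markers of other olfactory cells, 17 had a count in any cell, 6 were at 0 in all cells and 1 was tested. Their summed normalized count was 0 to 2233 (median 167) in the H3f3a-high sisters and 0 to 1135 (median 2.43) in the others, with 5 and 7 cells at 0. The tested marker, Gap43, had a median log2 ratio of 0, higher in 4 pairs and lower in 2. Of 20 markers of cells from outside the epithelium, 14 had a count, and their sum was 5.33 to 7319 (median 1818) against 3.83 to 7776 (median 2151). The part of such reads in the differences above was not tested.

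Genes of mitosis had a median above that of all widely counted genes and a wide spread over pairs. Of 54 genes of G2 and mitosis, 42 had a positive median, close to the 77.3% of widely counted genes, and 3 were past the fold and higher, 0 lower, with a median of 0.49. The 3 were Cenpa, Ube2c and Ccnb1. Relative to all genes 1 was higher, Ube2c, and 1 lower, and as shares 0 were higher and 1 lower. Ube2c, an ubiquitin ligase partner of mitotic exit, had 19.3 to 69762 normalized counts (median 4355) in the H3f3a-high sisters and 15.4 to 16011 (median 2757) in the others, a log2 ratio of 0.81 (SD 1.88), and was higher in 14 of 16 pairs. In the pairs below the cutoff it had 0.59 and was higher in 21 of 32. Ccnb1, the cyclin of mitotic entry, had medians of 4934 and 2143 and a log2 ratio of 0.78 (SD 2.79), and in the other pairs 0.09. With the pairs chosen anew on the total of gene counts, the ratios of Cenpa and Ccnb1 turned to -0.38 and -0.42. The median of the list ran from -1.56 to 4.12 over the 16 pairs, and was 0.23 over the members without pair 47. As shares of the counts on genes its median was 0.17, and in the 8 pairs kept by all 4 scalings -0.06 as shares. Of 41 S phase genes, 1 was past the fold, Nasp, and the median was 0.08.

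Genes of transcription and chromatin had medians near that of all widely counted genes. RNA polymerase II and its elongation factors had a median of 0.41 over 32 genes, 25 of them positive, close to the 77.3% of widely counted genes, with 1 past the fold on the spike-in scale and 0 relative to all genes or as shares. This was Polr2c, a core subunit, with 2710 to 16377 normalized counts (median 7004) against 701 to 11949 (median 5872), a log2 ratio of 1.05 (SD 1.25) and 13 of 16 pairs. The enzymes of H3K9 methylation and their HP1 readers had 0.34 with 0 of 10 past the fold. Of 19 enzymes of H3K27 and H3K4, 1 was past it. Kmt2c, a methyltransferase of enhancers, had 101 to 7228 (median 2305) against 8.35 to 11704 (median 818), a log2 ratio of 1.92 (SD 1.38) and 14 of 16 pairs. In the other pairs Kmt2c had -0.41, higher in 15 of 32, and in pairs chosen anew by the median of ratios over genes -0.34.

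The mitochondrial transcripts were higher in most pairs. Of 36 tested genes of the mitochondrial genome, 31 had a positive median, beside 77.3% of widely counted genes. Of the 36, 5 were past the fold and higher, and the list was higher in 14 of 16 pairs with a median of 0.48. mt-Nd6, a subunit of complex I, had 3063 to 14045 normalized counts (median 6274) in the H3f3a-high sisters and 2159 to 7430 (median 3654) in the others, a log2 ratio of 0.79 (SD 0.41), and was higher in 15 of 16 pairs. mt-Nd1 had medians of 165961 and 103221 and a log2 ratio of 0.65 (SD 0.53, 13 pairs; -0.011 in pairs chosen anew on TPM), and mt-Cytb, of complex III, had 92571 and 52886 and was higher in all 16 pairs (0.54, SD 0.50). The others past the fold were mt-Nd3 and the transfer RNAs mt-Tk and mt-Tl1. Of the 5, 2 were past it relative to all genes, mt-Nd6 and mt-Tk, and 1 as a share, mt-Tk. The counts of mt-Tk were low, with normalized medians of 75.4 and 22.7. In the 32 other pairs mt-Tk had -0.65 and was higher in the sister with more H3f3a in 11. The mitochondrial share of the counts on genes was 1.25% to 3.54% (median 2.33%) in the H3f3a-high sisters and 1.44% to 2.80% (median 1.96%) in the others, higher in 10 of 16 pairs. As shares the list kept a median of 0.17 and was higher in 12 pairs. In the 32 other pairs it had a median of -0.02, and the mitochondrial share was higher in the sister with more H3f3a in 13 of 32.

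Nuclear genes of oxidative phosphorylation had a median of 0.32 over 41 genes, the value of all widely counted genes, and 3 were past the fold. These were Ndufs6 of complex I (0.74, SD 0.69), Atp5l of the ATP synthase (0.71, SD 0.46) and Sdhb of complex II (0.65, SD 0.72), and 0 of 41 were past it relative to all genes or as shares. Cytosolic ribosomal proteins had a median of 0.35, with 76 of 76 members positive and 1, Rpl21, past the fold (0.68, SD 0.72), which it was not relative to all genes or as a share. As shares of the counts on genes, these medians were 0.03 and 0.10. Glycolytic and hypoxia genes had 0.09 with 0 of 20 past the fold, and xenobiotic enzymes, which modify foreign compounds, had 0.14 with 0 of 16. As shares, 1 gene each of the S phase, immediate early and xenobiotic lists was past the fold and lower.

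**Figure D4:**
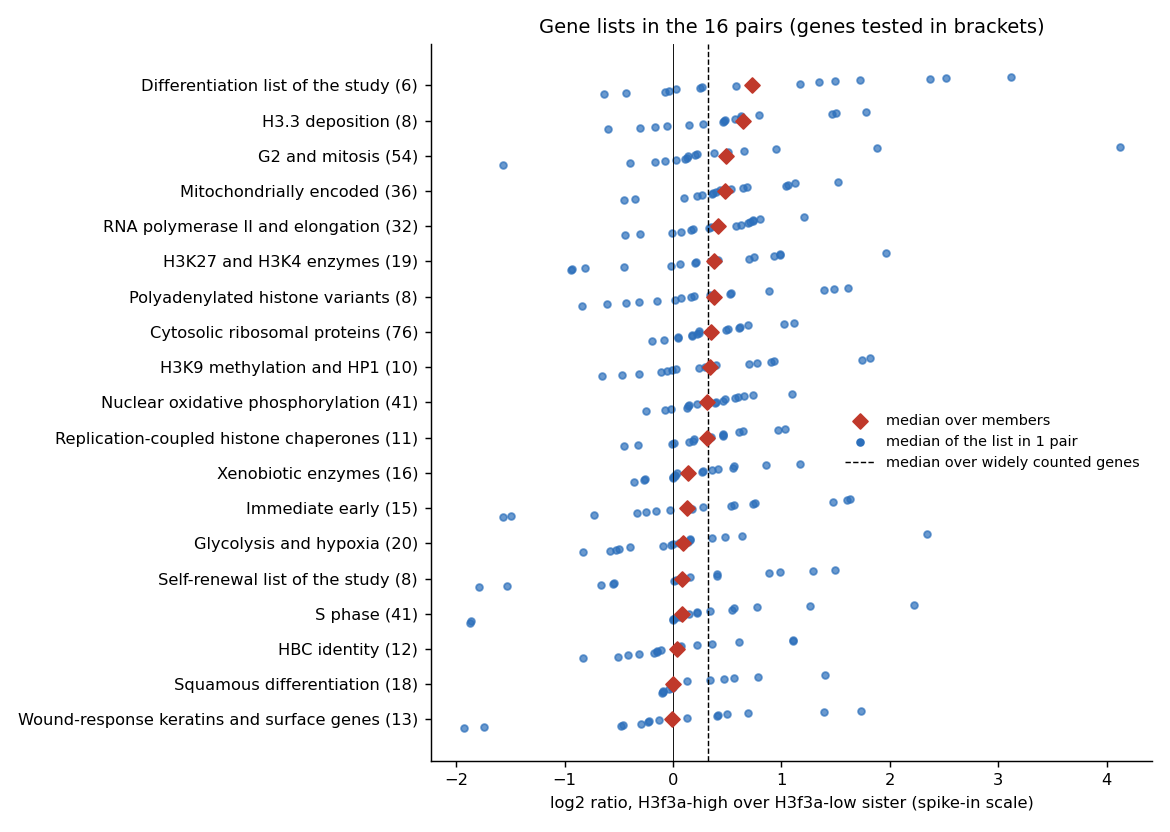
Median log2 ratio (H3f3a-high over H3f3a-low sister, spike-in scale) of each list of genes in each of the 16 pairs (blue) and the median over its members (red diamonds), with the number of genes tested in brackets. The dashed line is the median over widely counted genes, 0.32; the differentiation list of the study (0.73), H3.3 deposition (0.64) and mitosis (0.49) lie above it, and HBC identity (0.04), squamous (0) and wound-response genes (-0.01) near 0.

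The genes with the largest ratios, among those widely counted and past the fold, were in none of the lists above. Aldh4a1, a mitochondrial enzyme of proline breakdown, had 0 to 8842 normalized counts (median 3027) in the H3f3a-high sisters and 0 to 6966 (median 69.01) in the others. Its log2 ratio was 3.37 (SD 4.22), and it was higher in 13 pairs and lower in 2. Nfix, a transcription factor of the nuclear factor I family, had a count in every cell. It had 401 to 4508 (median 1319) against 62.1 to 1263 (median 452), a log2 ratio of 2.63 (SD 1.87), and was higher in 14 of 16 pairs. Sbf2, a regulator of membrane traffic, had 142 to 5899 (median 1968) against 2.79 to 2671 (median 231), a log2 ratio of 2.35 (SD 2.87) in 15 of 16 pairs. Sympk, a scaffold of the machinery that processes the 3′ ends of RNAs, had medians of 4997 and 1335 and a log2 ratio of 2.06 (SD 3.07) in 14 pairs. In the pairs below the cutoff the log2 ratios were 0.30 for Aldh4a1, 0.81 for Nfix, -0.43 for Sbf2 and 0.07 for Sympk. There the genes were higher in the sister with more H3f3a in 17, 19, 12 and 16 pairs, in that order.

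The others of the 10 were Arhgef11 (2.57), Zfp598 (2.31), a ligase that senses collided ribosomes, Ormdl1 (2.26), a regulator of sphingolipid synthesis, Nbea (2.04), Atf1 (2.03), a transcription factor of the CREB family, and Tagap (1.99). Relative to all genes, Aldh4a1, Sympk and Atf1 were higher in 12 pairs and no longer past the fold, Zfp598 was past it but outside the 10, and Gtpbp10, Tagap1, Grpel2 and Gm10717 entered. Tagap and Tagap1 are close copies whose reads may have been split between them. Each of these 14 genes was higher in 13 to 15 of the 16 pairs. In the pairs below the cutoff the log2 ratio was negative for Arhgef11 (-0.50), Zfp598 (-0.22), Atf1 (-0.48), Gtpbp10 (-0.008) and Gm10717 (-0.51). It was positive there for Ormdl1 (0.02), Nbea (0.19), Tagap (0.34), Tagap1 (0.39) and Grpel2 (0.43). The SD over pairs exceeded the median in 317 of the 390 genes, 81.3%, and in 98.9% of all tested genes.

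Genes that were lower in the H3f3a-high sister were few. Zmynd19, a zinc finger gene, was lower in 16 of 16 pairs, and was the only one of 14462 genes, 0.00691%. It had 0 to 1409 normalized counts (median 46.6) in the H3f3a-high sisters and 8.11 to 2546 (median 982) in the others, and a log2 ratio of -3.51 (SD 3.46), 11.4-fold lower with the pseudocount of 1. It was at 0 in 3 H3f3a-high and 0 H3f3a-low sisters, and had a count in 87 of the 96 cells. In the 32 other pairs it was higher in the sister with more H3f3a in 17, with a median of 0.89. Its ratio moved from -1.70 to -5.32 with the pair left out. Tspan7, a tetraspanin, had medians of 973 and 2295 (-1.88, SD 4.24), Slc30a7, a zinc transporter of the Golgi, 1396 and 3875 (-1.50, SD 4.24), and Frmd4b 1529 and 3373 (-1.09, SD 1.34, lower in 14 of 16 pairs). Uimc1, which brings BRCA1 to damaged DNA, had 371 and 1216 (-1.41, SD 1.97). Arhgap44 (-1.65), Tent4b (-1.18), Galnt18 (-1.05), Ddx19a (-0.93) and Nudt18 (-0.92) completed the 10, and Tbck, St6galnac2, Trim35, Usp25 and Nbdy entered relative to all genes.

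Higher in all 16 pairs were 6 genes, 0.0415%. These were Gm6421 and Gm10257, copies of H3f3a; Hmgb1-ps5, a pseudogene of Hmgb1; H2az1 and mt-Cytb, given above; and Mrpl42 of the mitochondrial ribosome, with medians of 9033 and 7029 and a log2 ratio of 0.42 (SD 0.53). These genes, like Zmynd19, were picked out for this pattern after their values were seen. As shares of the counts on genes the 6 were higher in 11 to 15 pairs.

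The 32 pairs below the cutoff played no part in the choice of genes and were used to look at the same genes again, with the sister that had more H3f3a set over the other. Their H3f3a ratios were smaller, 1.03 to 1.475. Of the 390 genes higher in the 16 pairs, 242, 62.1%, had a positive median there, against 45.0% of all tested genes. Of the 390, 322 were widely counted, and of these 64.3% were positive, beside 62.5% of all widely counted genes. Of the 19 lower genes 6, 31.6%, had a negative median there, beside 29.0% of all tested genes. The median over the 390 was 0.88 in the pairs that chose them and 0.08 in the others. On the relative scale 57.7% of the 130 higher genes were positive, beside 45.2% of all tested genes and 61.4% of widely counted ones. Of the 54 lower genes on that scale 48.1% were negative, beside 32.5% of all tested genes and 38.6% of widely counted ones. Whether these shares differ was not tested.

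**Figure D5:**
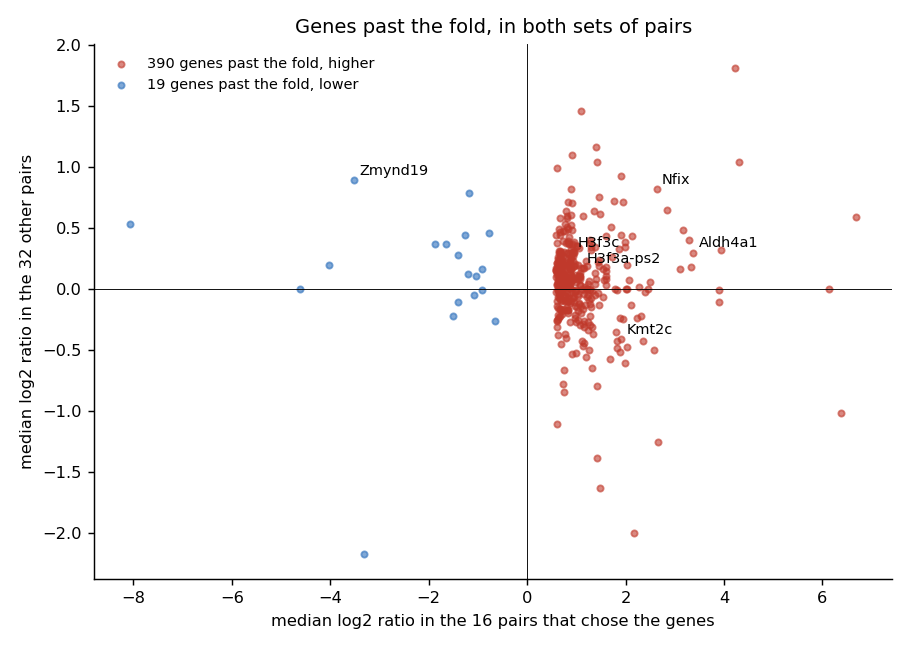
Median log2 ratio of the 390 higher (red) and 19 lower (blue) genes in the 16 pairs that chose them and in the 32 other pairs, sister with more H3f3a over sister with less. The red points spread above and below 0 on the vertical axis, with a median of 0.08 there, and Zmynd19, at -3.51 on the horizontal axis, lies at 0.89 on the vertical one.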

How the data were processed

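The transcriptomes of 96 single cells, 48 pairs of sisters, were analysed from the table of counts. The submitters' processing notes name Trimmomatic 0.39, STAR 2.7.11a, StringTie 2.2.1 and the build GRCm38. The authors deposited counts per gene, whole numbers derived from coverage, without normalization. The authors also deposited TPM values, whose scaling includes the ERCC transcripts. The pairs of cells are those of the library names, and each cell is 1 library. Calculations used Python 3.11.15, numpy 2.4.6, pandas 2.3.3, scipy 1.17.1 and matplotlib 3.10.9.

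Counts were divided by the cell's summed ERCC counts, which ran from 410953 to 2014791 (4.90-fold), and multiplied by their mean. Pairs with an H3f3a ratio of at least 1.5 were compared on log2(normalized count + 1), over the 14463 of 55487 genes that reached a count of 10 in 10% of the cells. A gene was past the fold at a median paired ratio of 1.5 in either direction and the same direction in at least 80% of pairs. The members and the lists were chosen with earlier results of these data known. No test was made, as no mouse or culture is given. Genes were named by rule: the H3.3 genes, the genes of the study's lists, the 10 largest and 10 smallest widely counted genes past the fold on each scale, and of each list up to 4 members past the fold or else its most abundant one; the copies of H3f3a and the genes of 1 direction in all pairs were added after their values were seen. Copies were sought as 31-base words of the H3f3a coding sequence in the GENCODE M21 transcripts, which held 14447 of the 14463 tested genes by identifier. The calculation was tested on simulated data. Other scalings, cutoffs, filters, a pseudocount of 10, means in place of medians, pairs alike in RNA content and leaving out each pair were tried as alternatives. The relative scale set by widely counted genes, the pairs kept by 4 scalings and the use of widely counted genes alone were added after seeing the data.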

Additional observations from a re-analysis of the deposited data

How the results depend on the processing

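The cutoff, the scaling and the number of pairs decide most counts. All 48 pairs carry the same wild-type label and no mouse, so spread over pairs is the only error. Of 44 named genes past the fold, 5 changed direction under any of 33 settings, and of 32 named genes not past it 19 did, Krt5, Krt14, Krt16, Myc, Yap1 and Fzd7 among them.

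With pairs chosen anew on the total of gene counts, 140 genes were higher and 126 lower (relative to all genes, 126 lower), against 390 and 19; by the median of ratios over genes 39 were higher (39 relative) and 52 lower; on TPM 90 were higher and 150 lower (157 relative). With the 16 pairs kept, the total of gene counts gave 85 higher (85 relative) and 68 lower, and the median of ratios over genes 60 (60 relative) and 88 (88 relative). A cutoff of 1.3 gave 68 higher and 1 lower, 20 and 9 relative. A cutoff of 2 left 5 pairs, of which 4 had to go one way, and gave 4410 higher and 378 lower, 2108 and 1272 relative, with a median over all genes of 0.51 against 0.14, of 0.67 over nuclear oxidative phosphorylation genes and of 0.10 for genes detected. Without the 2 pairs unlike in gene counts per spike-in count, 161 were higher, 80 and 28 relative. Relative to all genes, the stricter filter gave 73 and 92 and no filter 401 and 19. The filters change how many genes were tested, as does the use of widely counted genes alone, 7655 in place of 14462. Such counts cannot be set directly against those over 14462 genes. Of the alternatives added after seeing the data, centring on widely counted genes gave 80 and 173, widely counted genes alone 45 higher on the relative scale and 12 lower on the main scale, and the 8 pairs kept by 4 scalings 132 lower, and 307 and 255 relative. The cause of these moves was not tested. The number of pairs that a direction needs also changed wherever the number of pairs did.

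Leaving out 1 pair, where 12 of 15 pairs had to go one way, gave 397 to 640 higher and 24 to 40 lower genes, and 186 to 239 and 69 to 109 relative. The fewest higher genes, 397, and the most lower ones, 40, came without pair 47, and 640 without pair 29. The median of the RNA polymerase II list was -0.051 with pairs chosen anew by the median of ratios over genes. Of the genes past the fold and higher, 62.1% were positive in the pairs below the cutoff, beside 45.0% of all tested genes. The share of genes past the fold was 56.1% with the median of ratios over ERCC transcripts. It was 47.9%, 41.0% and 48.9% with pairs chosen anew on gene counts, ratios over genes and TPM. With the pairs kept on gene counts and ratios over genes it was 50.6% and 50%. It was 56.4% at a cutoff of 2 and 55.4% in the 8 pairs. The share of all tested genes was not taken under these settings, so the lower values cannot be read as a loss of agreement. Directions turned for Cenpa (-0.38 and -0.51) and Ccnb1 (-0.42 and -0.44) with pairs chosen anew on gene counts and on ratios over genes, for Kmt2c (-0.34 on ratios over genes, -0.041 on TPM), for mt-Nd1 (-0.011 on TPM) and for Galnt18 (0.66 at a cutoff of 2).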
